A study of Mus musculus with 6 samples.

Results

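The genes described here are 50 genes of the G2 to M transition and of mitosis, a fixed list chosen by name. All 50 were found among the 54532 genes of the expression table. They were measured by RNA sequencing in activated mouse CD8 T cells, the cytotoxic branch of T cells, which had been isolated from spleen and lymph nodes. The wild-type group (WT, n = 3) came from PTPMT1 wildtype mice and the knockout group (KO, n = 3) from PTPMT1 knockout mice. Cells of both groups had been stimulated in vitro for 3 days with antibodies to CD3 and CD28 on beads. Such beads mimic the signals a T cell gets from antigen and from costimulation. The sources used here do not give how the gene was deleted, in which cells, or the strain and age of the mice. The labels do not say that replicates came from separate mice, so p-values measure only how these samples spread, which may be partly technical.

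A resting T cell hardly transcribes this list, whereas an activated one divides repeatedly. In G2, the kinase CDK1 joins cyclin A or cyclin B, and CDC25 phosphatases switch it on. Polo-like and Aurora kinases then build the spindle. The checkpoint kinases and MAD2 hold anaphase until kinetochores are attached. The anaphase-promoting complex with CDC20 then destroys securin and the B-type cyclins, and centralspindlin and anillin drive cytokinesis. Many of these genes share a promoter element called the cell cycle genes homology region (CHR). On it the MuvB complex represses them with E2F4 in resting cells, and activates them with B-Myb and FOXM1 in dividing cells. The phosphatase PTPMT1 works in mitochondria, in the synthesis of cardiolipin, and the comparison asks how expression in activated CD8 T cells differs when the gene is deleted.

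A 300-base promoter window (250 bases before the RefSeq start base to 50 from it on, GRCm38.p6) was held for 42 of the 50 genes, and the letters TTTGAA or TTCGAA of the CHR were found in it, on either strand, for 34 of them. That is 81.0%, beside 21.7% of the 27025 genes with a window and 20.8% of 53 S phase genes. Between 60 bases before and 30 after the start, the share was 66.7%, beside 6.002% of all genes and 11.3% of S phase genes. The letters CCAAT (either strand) stood in that interval in 59.5% of the mitotic genes, 41.5% of the S phase genes and 16.4% of all. E2F-like letters (TTGGCGC or TTCCCGC or TTGCCGC or TTCGCGC, either strand) stood there in 4.76% of the mitotic genes, 49.1% of the S phase genes and 4.30% of all. A CCAAT on the other strand can share letters with TTGGCGC, and a match describes the sequence and shows no binding.

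**Figure D1:**
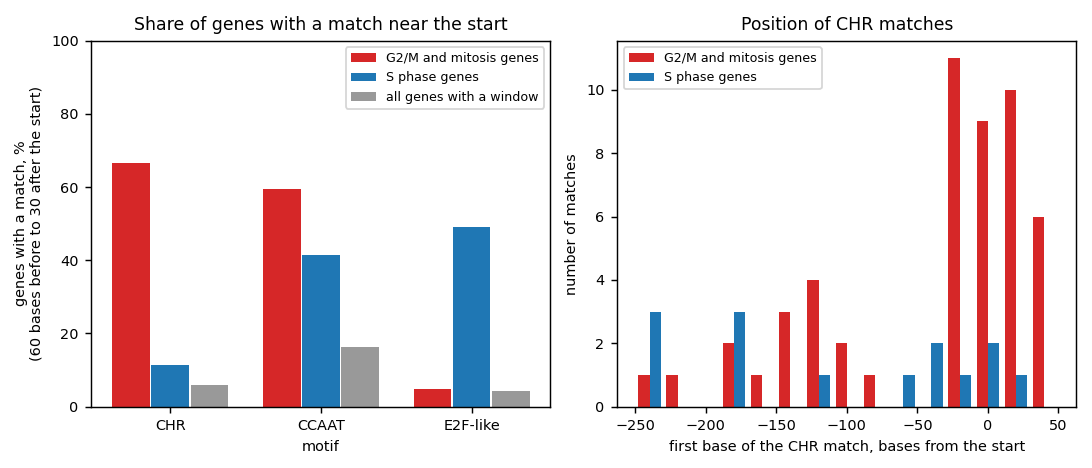
Promoter letters of the G2/M and mitosis genes. Left, the share of genes (%) with a match between 60 bases before and 30 after the start, for 42 G2/M and mitosis genes, 53 S phase genes and 27025 genes with a window; right, the number of CHR matches by distance in bases from the start. CHR letters are most frequent in the mitotic genes (66.7%) and cluster around the start, while E2F-like letters are most frequent in the S phase genes (49.1%).

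5 of these promoters are shown because they carry the shared letters while their genes had different KO values. Each runs from 150 bases before the start base to 30 from it on, with CHR and CCAAT letters (either strand) in capitals. Cdk1 is at chr10:69352883-69353062, minus strand; Ccnb2 at chr9:70421525-70421704, minus strand; Cdc25b at chr2:131186798-131186977, plus strand; Kif23 at chr9:61946770-61946949, minus strand; and Top2a at chr11:99024160-99024339, minus strand.
Cdk1: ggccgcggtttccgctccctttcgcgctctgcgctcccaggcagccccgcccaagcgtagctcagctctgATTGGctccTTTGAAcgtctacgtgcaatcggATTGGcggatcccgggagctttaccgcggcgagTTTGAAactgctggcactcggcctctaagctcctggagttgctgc
Ccnb2: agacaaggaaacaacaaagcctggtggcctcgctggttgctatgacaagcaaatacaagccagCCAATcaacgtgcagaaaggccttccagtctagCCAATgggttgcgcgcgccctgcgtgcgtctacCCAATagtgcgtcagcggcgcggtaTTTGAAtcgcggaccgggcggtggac
Cdc25b: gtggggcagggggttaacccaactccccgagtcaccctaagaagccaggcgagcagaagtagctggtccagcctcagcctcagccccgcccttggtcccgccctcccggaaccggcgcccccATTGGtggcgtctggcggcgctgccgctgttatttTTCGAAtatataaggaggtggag
Kif23: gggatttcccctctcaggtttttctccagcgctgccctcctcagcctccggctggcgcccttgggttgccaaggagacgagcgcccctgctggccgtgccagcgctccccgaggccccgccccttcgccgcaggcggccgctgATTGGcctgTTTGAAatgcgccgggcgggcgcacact
Top2a: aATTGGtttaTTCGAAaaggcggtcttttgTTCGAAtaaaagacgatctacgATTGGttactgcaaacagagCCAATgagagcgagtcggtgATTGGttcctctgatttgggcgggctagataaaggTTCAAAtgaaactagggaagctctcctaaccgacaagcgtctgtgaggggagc
Counted from the start base as 0, the CHR letters begin at 4 in Ccnb2, 7 in Cdc25b and 2 in Kif23, each with CCAAT letters (ATTGG on the other strand) upstream. Cdk1 has the letters in 2 places and Top2a in 3 within the stretch shown, and in Top2a the match nearest the start is on the opposite strand.

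Depth was similar across the libraries, with 14932604 to 16819913 whole reads rebuilt from the FPKM (fragments scaled to gene length and library size). KO replicate 2 differed in scaling: the library total behind its FPKM was 0.780 times its rebuilt reads, against 0.941 to 1.096 in the others, and its FPKM summed to 605554, against 357607 to 474629. Equal totals, below, means that each sample was rescaled to the same sum of FPKM. Ptpmt1 (ENSMUSG00000063235, chromosome 2, 90908716 to 90918258) had FPKM of 3.75, 3.84 and 4.13 in WT and 1.0004, 1.58 and 1.504 in KO. Each KO sample lay below each WT sample (log2 fold change -1.26, SE 0.198, limma adjusted p = 0.0884), and adjusted p was 0.0344 without KO replicate 3. KO replicate 3 stood apart. It had 0 Xist reads, the RNA of the inactive X chromosome, where the other 5 libraries had 3513 to 8614. Reads of Ddx3y, on the Y chromosome, numbered 1837 in it and 0 in the others, so its cells came from a different animal than theirs. The KO samples thus did not all come from the same animal, and how much of their spread is technical was not tested. Its mitochondrial reads (2.38%) and ribosomal protein reads (10.9%) were the lowest of all, and those of KO replicate 2 (7.53% and 19.0%) the highest. The 10 T cell and CD8 markers were detected, with a summed FPKM of 2967 to 3871 in WT and 1802 (replicate 3) to 5137 (replicate 2) in KO. Trbc2 made up most of the sum in KO replicate 2 (3260 FPKM). Cd8a was 182 to 219 in WT and 109 to 145 in KO. For Cd3e, Trac and Zap70, too, no KO sample reached the lowest WT sample, as for 13.3% of all genes tested. Cd3d, Cd3g, Cd247, Cd8b1, Lck and Trbc2 overlapped between the groups, with Cd3d, Cd3g, Lck and Trbc2 highest in KO replicate 2. Of 5 gamma-delta T cell markers 4 had a mean of at least 0.5, with sums of 26.4 to 52.8 in WT and of 27.4, 64.3 and 174 in KO replicates 1 to 3. Of 7 neutrophil and mast cell markers 6 did, with sums of 4.53 to 14.1 in WT and 9.13 to 41.0 in KO, again highest in replicate 3, and with Ly6g at 0. The macrophage list summed to at most 7.67 in any sample, with C1qa at 0. Of the B cell markers, Ighm, the heavy chain of IgM, was high, at 299 to 387 FPKM in WT and 243 to 318 in KO. The part of these differences in the results below was not tested, and the main counts and genes are given with and without KO replicate 3. In bulk samples, fewer cells of a type and less RNA per cell cannot be told apart.

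Genotype was tested with limma on log2(FPKM + 0.5), and a gene was called at a Benjamini-Hochberg adjusted p under 0.05 over the 12654 genes that reached a mean FPKM of 0.5. All 50 genes passed this filter. With all 6 samples, 0 of the 50 were called, beside 0.0395% (5) of all genes tested. At an unadjusted p under 0.05, 1 gene was higher in KO (Plk4; 11.5% of all genes) and 2 were lower (Pttg1 and Cdc25b; 10.2% of all genes). Limma-voom on the rebuilt reads also called 0 of the 50. Log2 fold changes (KO minus WT) ran from -1.23 to 0.68 with a median of 0.02, beside 0.03 over all genes. Of the 50, 27 were above 0, beside 6632 of the 12654. Each KO sample lay above each WT sample for 1 gene (Plk4; 14.5% of all genes) and below for 3 (Pttg1, Foxm1 and Kif22; 13.3% of all genes). As shares of the 50, the counts at an unadjusted p and those of groups that did not overlap were below the shares of all genes.

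Without KO replicate 3 the picture differed. 5 of the 50 genes were then called, all higher in KO: Cdk1, Mad2l1, Plk4, Ccnb1 and Bub1. The share called over all genes in that fit was 13.7%, or 8.12% higher in KO, so 5 of 50 is close to it. At an unadjusted p under 0.05, 14 were higher (19.5% of all genes) and 2 lower (15.5% of all genes). The median of the 50 was 0.15, beside 0.03 for all genes. These calls depended on the scaling. At equal totals without KO replicate 3, 0 of these 5 were called (limma adjusted p = 0.0536 to 0.543), and the 3 called were all lower in KO: Pttg1, Cdc25b and Smc4 (16.2% of all genes were called). At an unadjusted p under 0.05, 3 were then higher (5.71% of all genes) and 12 lower (31.3% of all genes). In that fit the median of the 50 was -0.31, beside -0.37 for all genes.

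**Figure D2:**
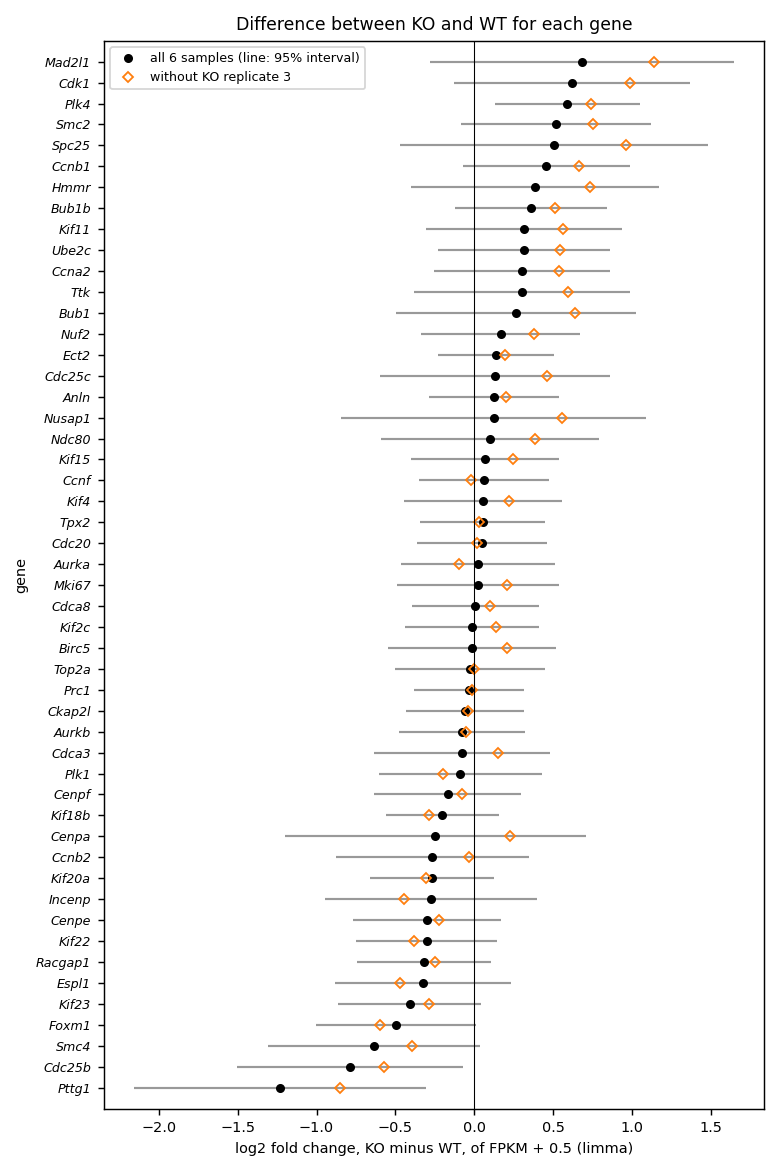
Log2 fold change (KO minus WT, FPKM + 0.5) of each of the 50 genes. Points and lines are the limma estimate and its 95% interval from all 6 samples, and open diamonds the estimate without KO replicate 3. The interval excludes 0 for Plk4, Cdc25b and Pttg1 alone, and leaving out KO replicate 3 moves Mad2l1 from 0.68 to 1.14.

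The KO samples did not act alike on these genes. Relative to the WT mean, the median of the 50 genes was 0.21 in KO replicate 1, 0.06 in replicate 2 and -0.21 in replicate 3 on the log2 scale, and 0.12, 0.01 and -0.14 in the WT samples. In KO replicate 1, 31 of the 50 lay above every WT sample (35.9% of all genes did) and 6 below (31.5%). In replicate 2, 22 lay above (38.8%) and 20 below (35.3%). In replicate 3, 3 lay above (35.2%) and 31 below (34.1%). KO replicate 3 was thus the low KO sample for most of the list, and WT replicate 3, below both other WT samples in 36 of the 50, was the low WT sample (40.2% of all genes were lowest there). The SD of log2 values was larger in KO than in WT for 46 of the 50 (92.0%, beside 67.7% of all genes), with medians of 0.347 and 0.162.

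**Figure D3:**
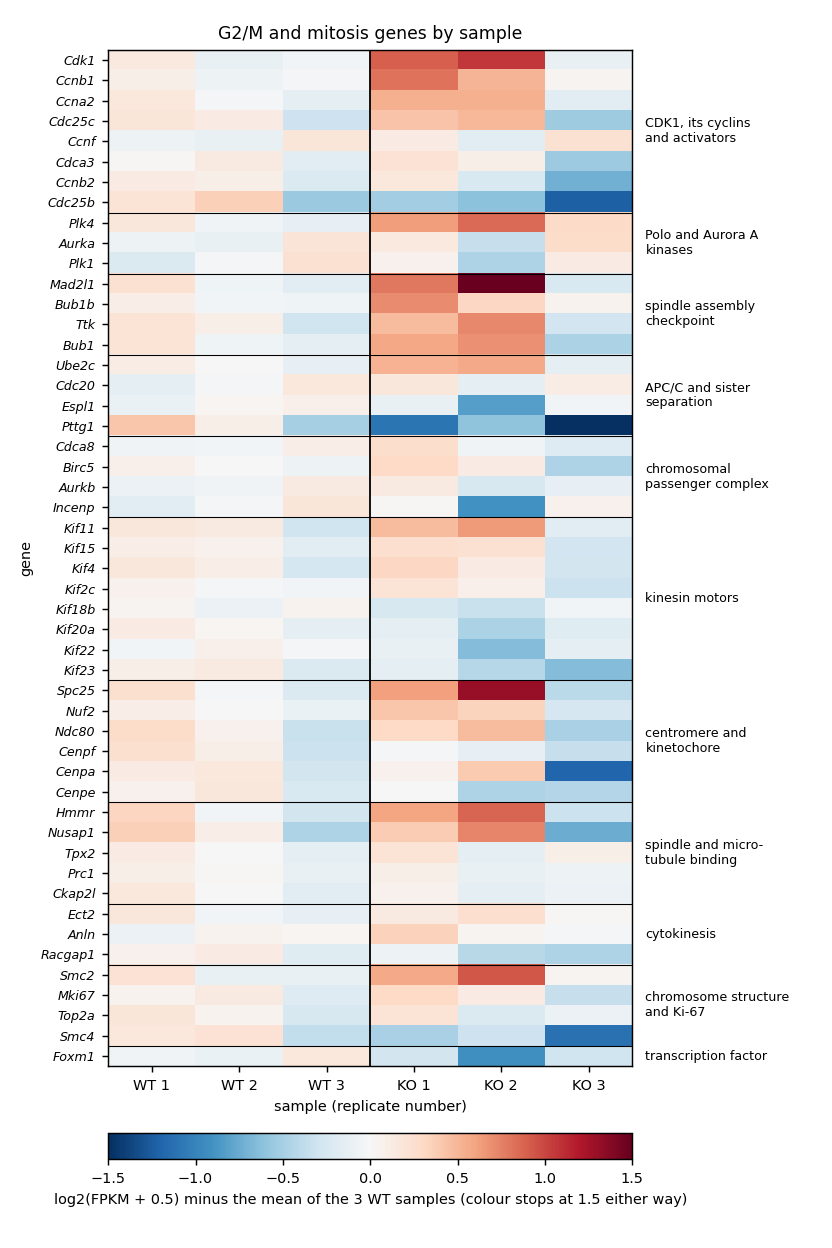
Log2(FPKM + 0.5) of the 50 genes in each sample, minus the mean of the 3 WT samples; rows are genes grouped by role, columns are samples, and the colour stops at 1.5 either way. The checkpoint genes are red in KO replicates 1 and 2 and pale or blue in replicate 3, while Pttg1, Cdc25b and Smc4 are blue in all 3 KO samples.

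Of the 8 genes for CDK1, its cyclins and their activators, 5 had a log2 fold change above 0 (3 at equal totals) and the median was 0.10 (0.31 without KO replicate 3, -0.17 at equal totals). For this and the role groups below, the reference at equal totals is the median of all genes, -0.20, with 4343 of 12654 above 0. Cdk1, the kinase itself (ENSMUSG00000019942, chromosome 10, 69335146 to 69352938, minus strand), had FPKM of 27.9, 23.2 and 24.5 in WT and 47.3, 53.2 and 23.1 in KO. Replicates 1 and 2 of KO lay above all WT samples and replicate 3 below them all. The log2 fold change was 0.62 (SE 0.316, 95% interval -0.13 to 1.36, limma adjusted p = 0.301), and 0.98 without KO replicate 3 (adjusted p = 0.0344, or 0.0795 at equal totals). Ccnb1, cyclin B1, the partner of CDK1 in mitosis (ENSMUSG00000041431, chromosome 13, 100778650 to 100786570, minus strand), gave FPKM of 39.9, 35.5 and 36.9 in WT and 66.1, 53.5 and 38.5 in KO. Here too replicates 1 and 2 were clear of WT and replicate 3 was within its range (log2 fold change 0.46, SE 0.222, limma adjusted p = 0.279; without replicate 3, log2 fold change 0.66 and adjusted p = 0.0437; the same at equal totals, 0.20 and adjusted p = 0.543). Ccnb2, the second B-type cyclin and the most abundant gene of the group, gave FPKM of 132, 129 and 104 in WT and 135, 103 and 73.1 in KO. Its groups overlapped (log2 fold change -0.27, SE 0.259, limma adjusted p = 0.578). Ccna2, cyclin A2, had means of 67.6 ± 7.03 (SD, n = 3) in WT and 85.3 ± 21.7 (SD, n = 3) in KO, a log2 fold change of 0.30 (limma adjusted p = 0.488).

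Cdc25b, the phosphatase that starts CDK1 activation in G2 (ENSMUSG00000027330, chromosome 2, 131186949 to 131198497, plus strand), was the other way. It had FPKM of 49.4, 54.9 and 29.02 in WT and 29.7, 27.7 and 18.03 in KO. WT replicate 3 was at the level of the highest KO sample, and the other 2 WT samples were well above. The means were 44.4 ± 13.6 (SD, n = 3) in WT and 25.1 ± 6.24 (SD, n = 3) in KO, a log2 fold change of -0.79 (SE 0.302, 95% interval -1.505 to -0.07, unadjusted p = 0.0348, limma adjusted p = 0.196; without KO replicate 3, log2 fold change -0.57 and adjusted p = 0.208). Cdc25c, a related phosphatase, had means of 12.4 ± 2.28 (SD, n = 3) in WT and 14.2 ± 5.09 (SD, n = 3) in KO, a log2 fold change of 0.13 (limma adjusted p = 0.831). Ccnf, cyclin F, had a log2 fold change of 0.06, and Cdca3, which promotes the destruction of the CDK1 inhibitor WEE1, one of -0.08.

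Among the Polo and Aurora A kinases, Plk4, which starts centriole duplication (ENSMUSG00000025758, chromosome 3, 40800019 to 40816883, plus strand), was the single member with all KO samples above all WT samples. It had FPKM of 11.4, 9.71 and 9.24 in WT and 15.8, 18.6 and 12.4 in KO, with means of 10.1 ± 1.13 (SD, n = 3) in WT and 15.6 ± 3.13 (SD, n = 3) in KO, a log2 fold change of 0.59 (SE 0.193, 95% interval 0.13 to 1.05, unadjusted p = 0.0188, limma adjusted p = 0.158; without KO replicate 3, log2 fold change 0.74 and adjusted p = 0.0404; the same at equal totals, 0.29 and adjusted p = 0.277). Plk1, the main mitotic Polo kinase, gave FPKM of 30.8, 35.5 and 41.95 in WT and 37.5, 25.8 and 39.2 in KO. Its groups were interleaved, and the 95% interval of the log2 fold change ran from -0.61 to 0.43. Aurka, the spindle pole kinase Aurora A, had a log2 fold change of 0.02 (95% interval -0.46 to 0.51).

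The spindle assembly checkpoint was the group with the highest median, 0.33, or 0.61 without KO replicate 3. At equal totals the median was 0.06, beside -0.20 for all genes. Bub1 turned to -0.0036 there, and the other 3 stayed above 0. All 4 genes lay above every WT sample in KO replicates 1 and 2, where 35.9% and 38.8% of all genes did. In replicate 3, 0 lay above (35.2% of all genes) and 2 lay below every WT sample (34.1% of all genes). Mad2l1, which encodes MAD2, the inhibitor of CDC20 (ENSMUSG00000029910, chromosome 6, 66535390 to 66547220, plus strand), had FPKM of 26.8, 21.7 and 20.3 in WT and 39.9, 64.4 and 19.5 in KO. KO replicate 2 was the highest and replicate 3 the lowest of all 6. The log2 fold change came to 0.68 (SE 0.407, limma adjusted p = 0.366), 1.14 without replicate 3 (adjusted p = 0.0401, or 0.0536 at equal totals) and 0.29 without replicate 2. Bub1b, which encodes the checkpoint protein BUBR1, gave FPKM of 40.8, 37.2 and 36.6 in WT and 62.7, 47.5 and 39.7 in KO, with KO replicate 3 within the WT range (log2 fold change 0.36, limma adjusted p = 0.341). The kinase gene Bub1, singled out after its values were seen, gave FPKM of 31.3, 26.01 and 24.6 in WT and 40.98, 43.98 and 19.4 in KO. Its log2 fold change was 0.27, and 0.63 without KO replicate 3 (limma adjusted p = 0.0497, or 0.509 at equal totals). Ttk, the kinase MPS1, had a log2 fold change of 0.30, and 0.59 without KO replicate 3.

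**Figure D4:**
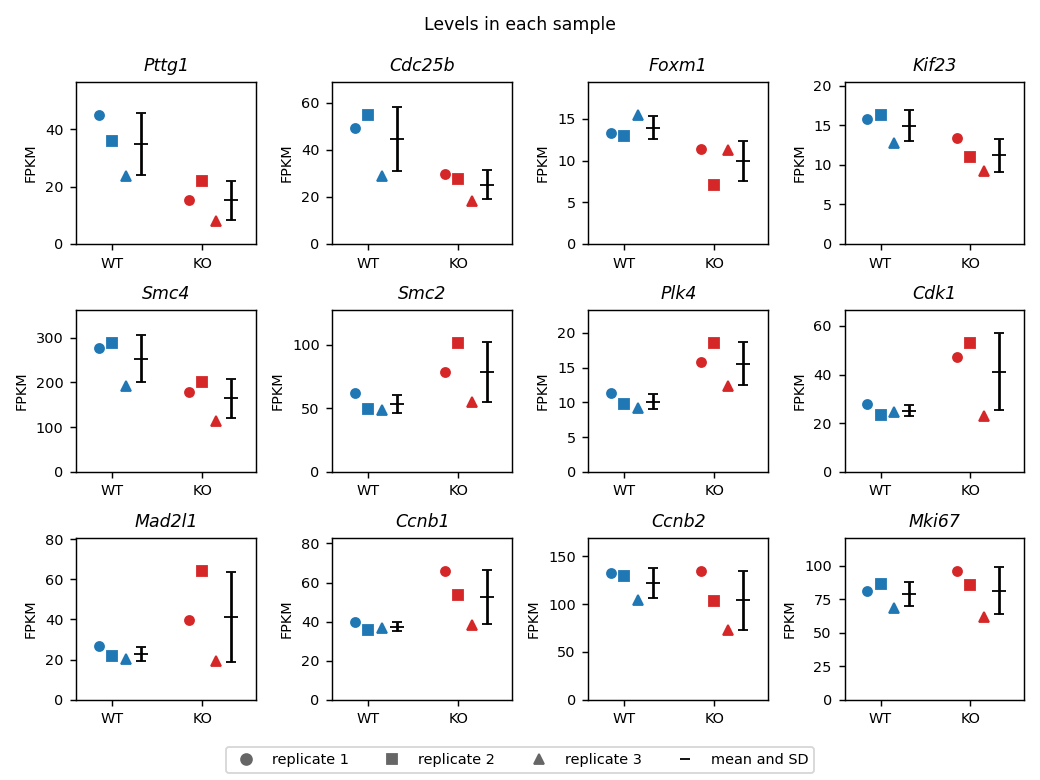
FPKM of 12 of the genes in each sample; symbols mark the replicate number, which does not pair the samples, and bars the mean and SD of 3 samples. KO replicate 3 (triangle) is the lowest KO sample in 11 of the 12 panels, and the KO points of Cdk1, Mad2l1 and Ccnb1 spread more than their WT points.

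In the anaphase group, Pttg1 had the lowest log2 fold change of the list. It encodes securin, which holds the protease separase inactive until anaphase (ENSMUSG00000020415, chromosome 11, 43420250 to 43426251, minus strand). Pttg1 had FPKM of 45.1, 35.8 and 23.6 in WT and 15.5, 21.9 and 8.09 in KO. No KO sample reached the lowest WT sample, though KO replicate 2 came close to it. The means were 34.8 ± 10.8 (SD, n = 3) in WT and 15.2 ± 6.93 (SD, n = 3) in KO, a KO level 0.426 times that of WT (95% interval 0.224 to 0.81). The log2 fold change was -1.23 (SE 0.392, unadjusted p = 0.0163, limma adjusted p = 0.153), and -0.85 without KO replicate 3 (adjusted p = 0.108). Espl1, separase itself, had means of 11.4 ± 0.762 (SD, n = 3) in WT and 9.27 ± 2.67 (SD, n = 3) in KO, a log2 fold change of -0.33 (limma adjusted p = 0.452). Cdc20, the activator of the anaphase-promoting complex, gave FPKM of 67.5, 73.6 and 82.7 in WT and 83.9, 67.2 and 80.7 in KO, with interleaved groups and a 95% interval of -0.36 to 0.46 for the log2 fold change. Ube2c, its ubiquitin-conjugating enzyme, had a log2 fold change of 0.31 (limma adjusted p = 0.460).

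The chromosomal passenger complex, which corrects faulty attachments, had log2 fold changes between -0.28 and 0.0050, and none of its 4 genes passed the test. Birc5, survivin, gave FPKM of 55.5, 52.4 and 50.1 in WT and 64.6, 57.3 and 38.1 in KO (log2 fold change -0.01, 95% interval -0.55 to 0.52). KO replicate 1 was the highest and replicate 3 the lowest of the 6. The log2 fold change was -0.08 for Aurkb (Aurora B), 0.0050 for Cdca8 (borealin) and -0.28 for Incenp, the scaffold. In Incenp it was KO replicate 2, at 23.1 FPKM, that lay below the range of the other 5 samples.

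Among the 8 kinesin motors, 3 had a log2 fold change above 0 (1 at equal totals) and the median was -0.11. Kif11, the motor that pushes spindle poles apart and the most abundant of them, gave FPKM of 75.8, 74.1 and 54.5 in WT and 94.02, 105 and 59.8 in KO (log2 fold change 0.32, 95% interval -0.31 to 0.94). KO replicate 3 was again inside the WT range. Kif23, the motor of centralspindlin (ENSMUSG00000032254, chromosome 9, 61915905 to 61946774, minus strand), gave FPKM of 15.8, 16.3 and 12.7 in WT and 13.4, 10.9 and 9.26 in KO. Only KO replicate 1 reached the WT range (log2 fold change -0.41, SE 0.192, limma adjusted p = 0.264; without KO replicate 3, log2 fold change -0.29). Kif22, a chromosome arm motor singled out because its groups did not overlap, gave FPKM of 17.4, 18.97 and 17.5 in WT and 16.6, 11.2 and 16.3 in KO. Its log2 fold change came to -0.30 (SE 0.190, limma adjusted p = 0.386), with KO replicate 2 well below the other 5 samples. The other 5 (Kif2c, Kif4, Kif15, Kif18b and Kif20a) had log2 fold changes from -0.27 to 0.06.

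Of the 6 centromere and kinetochore genes, 3 lay above 0 (1 at equal totals). Spc25, a subunit of the microtubule-binding NDC80 complex, gave FPKM of 25.04, 20.7 and 18.1 in WT and 32.4, 52.99 and 15.8 in KO. Its value in KO replicate 2 was far above the other 5 samples (log2 fold change 0.505, SE 0.412, limma adjusted p = 0.506). Cenpa, the centromeric histone, gave FPKM of 46.9, 48.1 and 35.4 in WT and 44.9, 56.5 and 18.6 in KO. KO replicate 2 was the highest of the 6 and replicate 3 the lowest, and the log2 fold change turned from -0.25 to 0.22 without replicate 3. Ndc80 and Nuf2, 2 further subunits of the NDC80 complex, had log2 fold changes of 0.10 and 0.17. For Cenpe, a kinetochore motor, and Cenpf they were -0.30 and -0.17.

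The 5 spindle genes were led in level by Nusap1, a microtubule bundler, with FPKM of 82.3, 68.7 and 46.4 in WT and 83.3, 106 and 38.1 in KO. Its replicates 3 were the lowest of each group (log2 fold change 0.12, 95% interval -0.84 to 1.09). Hmmr had a log2 fold change of 0.38 (SE 0.332). Log2 fold changes were 0.05 for Tpx2, the activator of Aurora A, -0.03 for Prc1, the central spindle crosslinker, and -0.06 for Ckap2l. In cytokinesis, Racgap1, the centralspindlin partner of Kif23, gave FPKM of 38.5, 40.2 and 32.3 in WT and 34.9, 27.4 and 26.6 in KO. Replicates 2 and 3 of KO lay below all WT samples (log2 fold change -0.32, SE 0.179, limma adjusted p = 0.337). Ect2, which switches on RhoA at the furrow, had a log2 fold change of 0.14, and Anln, anillin, the least abundant of the 50, one of 0.12.

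The chromosome group held log2 fold changes of both signs within condensin, the complex that compacts mitotic chromosomes. Its subunit Smc4 was the most abundant of the 50 genes, and FPKM is per length and can be compared between genes (ENSMUSG00000034349, chromosome 3, 69004738 to 69034623, plus strand). Smc4 had FPKM of 277, 289 and 192 in WT and 178, 200.05 and 114 in KO, where only KO replicate 2 exceeded the lowest WT sample. The log2 fold change was -0.64 (SE 0.284, 95% interval -1.31 to 0.03, limma adjusted p = 0.248), and -0.40 without KO replicate 3. Its partner Smc2 (ENSMUSG00000028312, chromosome 4, 52439243 to 52488260, plus strand) gave FPKM of 61.8, 49.2 and 48.9 in WT and 78.8, 102 and 54.7 in KO. KO replicates 1 and 2 lay above all WT samples (log2 fold change 0.52, SE 0.255, limma adjusted p = 0.285; without KO replicate 3, log2 fold change 0.75 and adjusted p = 0.0506). The proliferation marker Mki67 gave FPKM of 81.6, 86.7 and 68.8 in WT and 96.5, 85.5 and 62.01 in KO. Its groups overlapped, and the KO level was 1.02 times that of WT with a 95% interval of 0.712 to 1.45. Top2a, the topoisomerase that untangles sister chromatids, gave FPKM of 126, 115 and 93.97 in WT and 128, 95.6 and 105 in KO, with an interval of -0.51 to 0.45 for the log2 fold change. Neither gene passed the test, and these intervals are the precision that 3 against 3 samples gave.

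Foxm1, the transcription factor of the list (ENSMUSG00000001517, chromosome 6, 128362967 to 128376146, plus strand), had FPKM of 13.4, 12.97 and 15.5 in WT and 11.4, 7.12 and 11.2 in KO. Each KO sample lay below each WT sample, and KO replicate 2 was lowest. The means were 13.95 ± 1.37 (SD, n = 3) in WT and 9.91 ± 2.42 (SD, n = 3) in KO, a log2 fold change of -0.498 (SE 0.215, 95% interval -1.01 to 0.01, limma adjusted p = 0.235; without KO replicate 3, log2 fold change -0.60 and adjusted p = 0.118). No RefSeq promoter window was held for Foxm1. Genes with CHR letters in their window (34) had a median log2 fold change of 0.02 and ran from -0.79 to 0.62. The 8 without (Birc5, Ccnb1, Cenpe, Mad2l1, Nuf2, Nusap1, Plk4 and Pttg1) had a median of 0.14 and ran from -1.23 to 0.68. The Cdk1 and Cdc25b promoters printed above thus both carry CHR letters near the start, and their genes had log2 fold changes of 0.62 and -0.79.

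Next, 14 pairs of partner genes were compared as a ratio within each sample, in which any scaling between libraries cancels. The pairs were chosen after the values were seen, so the ratios are a description, with no test. In 3 of the 14 pairs the WT and KO samples did not overlap, which says nothing of the pairs as a set: among single genes, 14.5% had each KO sample above each WT sample and 13.3% below. In WT the log2 ratio of Smc2 to Smc4 was -2.16, -2.55 and -1.97, against -1.17, -0.98 and -1.06 in KO, a difference of 1.16. For Ccnb1 to Ccnb2 it was -1.73, -1.87 and -1.49, against -1.03, -0.95 and -0.93 in KO, a difference of 0.73. For Cdc25b to Cdc25c it was 1.82, 2.03 and 1.57, against 0.84, 0.66 and 1.11 in KO, a difference of -0.94. In these 3 pairs, picked for not overlapping, KO replicate 3 lies on the KO side by that choice. The other 11 pairs overlapped, among them securin to separase (difference -0.92) and Kif23 to Racgap1 (difference -0.10).

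**Figure D5:**
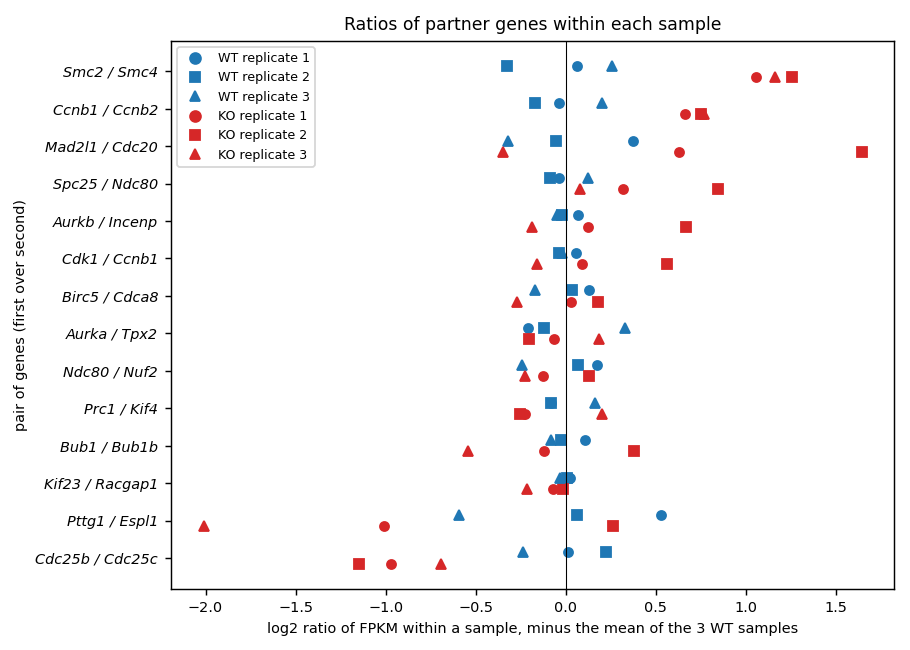
Log2 ratio of FPKM of 14 partner pairs within each sample, minus the mean of the 3 WT samples; blue is WT, red is KO, and the symbol is the replicate. The KO points lie to the right of all WT points for Smc2 over Smc4 and Ccnb1 over Ccnb2, and to the left for Cdc25b over Cdc25c.

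Related genes outside the list were read from the same fit, and 0 of each list were called with all 6 samples. The counts that follow are at an unadjusted p under 0.05, where over all genes 11.5% were higher and 10.2% lower, and at equal totals the median of all genes was -0.20. Of 86 other spindle, kinetochore and mitotic genes, there were 7 higher and 5 lower in KO, with a median log2 fold change of 0.20 that turned to -0.06 at equal totals. Of these, Trip13, which remodels MAD2, had mean FPKM of 10.7 ± 3.23 (SD, n = 3) in WT and 19.3 ± 2.01 (SD, n = 3) in KO, a log2 fold change of 0.85 (limma adjusted p = 0.119). Hjurp, the chaperone of CENP-A, had 33.3 ± 2.59 (SD, n = 3) in WT and 22.6 ± 2.53 (SD, n = 3) in KO, a log2 fold change of -0.55 (limma adjusted p = 0.131). Without KO replicate 3, 13 of the 86 were called (13.7% of all genes), and 7 at equal totals (16.2% of all genes). Of 17 subunits and regulators of the anaphase-promoting complex, 2 were higher and 0 lower (median 0.15, and -0.11 at equal totals). Log2 fold changes were 0.43 for the ubiquitin-conjugating Ube2s and 0.44 for the subunit Cdc23. Cdc23 shares exon sequence with Kif20a on the opposite strand. Of 18 other condensin and cohesin genes, 0 were higher and 1 lower (median 0.05, and -0.22 at equal totals). The lower gene was the condensin subunit Ncapd2, with means of 61.2 ± 3.84 (SD, n = 3) in WT and 41.3 ± 10.4 (SD, n = 3) in KO, a log2 fold change of -0.59 (limma adjusted p = 0.190). Nipbl, the cohesin loader, had a log2 fold change of -0.39. Of 16 regulators of the MuvB, B-Myb and E2F4 group, 1 was higher and 0 lower (median 0.19, and -0.05 at equal totals). The higher gene was Tfdp1, the DNA-binding partner of E2F factors. Its means were 55.2 ± 12.5 (SD, n = 3) in WT and 89.2 ± 4.58 (SD, n = 3) in KO, a log2 fold change of 0.71 (limma adjusted p = 0.130). Lin37, a MuvB subunit, had a log2 fold change of -0.504.

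The 68 S phase genes, for DNA replication, had a higher median than the mitotic list. At an unadjusted p under 0.05, 16 were higher and 0 lower in KO (11.5% and 10.2% of all genes), and 64 lay above 0 (46 at equal totals). Over all 12654 genes, 6632 lay above 0 (4343 at equal totals). The median of the S phase genes was 0.36, or 0.09 at equal totals. Without KO replicate 3 it was 0.42 and 18 were called (13.7% of all genes), or 6 at equal totals (16.2%). Hells, a chromatin remodeler, had means of 21.98 ± 4.71 (SD, n = 3) in WT and 43.2 ± 9.40 (SD, n = 3) in KO, a log2 fold change of 0.96 (limma adjusted p = 0.111), and Dna2, a replication nuclease, 2.89 ± 0.859 (SD, n = 3) in WT and 5.45 ± 0.569 (SD, n = 3) in KO, a log2 fold change of 0.84 (limma adjusted p = 0.116). By sample, the median of the S phase genes over the WT mean was 0.49, 0.39 and 0.20 on the log2 scale in KO replicates 1 to 3, above 0 in each, and -0.05, -0.13 and 0.15 in the WT samples. For the 50 mitotic genes KO replicate 3 was at -0.21. The difference between the lists was not tested.

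A scaling of every sample to the same FPKM total moved the median of all genes from 0.03 to -0.20 and that of the 50 genes from 0.02 to -0.24. On that scaling 12 of the 50 lay above 0 (27 as deposited), beside 4343 of the 12654 genes tested (6632 as deposited). Pttg1, Cdc25b, Smc4, Kif23 and Racgap1 were then lower at an unadjusted p under 0.05 (12.9% of all genes), with 0 higher (3.83% of all genes). Mad2l1, Cdk1 and Plk4 stayed the highest of the 50 (0.41, 0.35 and 0.33). Without replicate 3 of either group, on the deposited scale, 3 were called (14.7% of all genes), with Cdk1 higher and Pttg1 and Cdc25b lower. Dividing each sample by its median ratio to the geometric means of the genes instead used factors of only 0.992 to 1.010. It called 0 of the 50 (5 of all genes), with a median of 0.01 (0.02 over all genes). Which genes of the list were called thus moved with the libraries kept and, without KO replicate 3, with scaling to equal totals.

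Exons of 16 of the 50 genes overlap those of another gene, 13 on the opposite strand and 3 on the same strand. They include Cdc25b with Spef1, Nusap1 with Oip5, and Foxm1 with Tex52. The sources used here do not say how strand was treated in counting, so reads in those stretches may belong to the neighbour.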

How the data were processed

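Per the labels' protocols, the library kit was a stranded one for mRNA. The submitters' processing notes name the build mm10 and the tools DESeq2, featureCounts 1.5.0-p3, HISAT2 2.0.5 and Trim Galore, without role or order. The authors deposited 1 FPKM value per gene and sample, beside a deposited column of another kind, the length of each gene. FPKM times length fell on whole multiples of 1 step (tolerance 0.05) for at least 99.99% of values, so whole reads were rebuilt. Identifiers were matched to GENCODE M21 (54409 matched, 123 did not), whose coordinates are printed, and 27 names read as dates were restored.

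Differences were tested with limma 3.58.1 (R 4.3.3; lmFit, eBayes with trend, 2-sided, genotype only) on log2(FPKM + 0.5), a scale that understates the change of low genes. Genes needed a mean FPKM of at least 0.5, and p-values were adjusted over all 12654 by Benjamini-Hochberg. The test was also run on data simulated from the means and WT spread of these samples, with the same spread in both groups. In the samples themselves the SD was larger in KO for 67.7% of genes. Promoters came from RefSeq (GRCm38.p6), with 8 genes not held.

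The 50 genes, the related lists and their tests were chosen with earlier results of these data known. Named with values in every sample were Ptpmt1, members with an unadjusted p under 0.05, the 5 highest and 5 lowest log2 fold changes, the most abundant member of each role, and Cdk1, Ccnb1, Plk1, Top2a and Mki67. Up to 2 genes of smallest p per related list are named with means or a fold change. Members outside this rule are said to be singled out. Alternatives covered the pseudocount, filter, scaling, sample weights, variance trend, a replicate block, rebuilt reads with limma-voom and each sample left out. Tables and plots used Python 3.11.15, pandas 2.3.3 and matplotlib 3.10.9.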

Additional observations from a re-analysis of the deposited data

How the results depend on the processing

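With all 6 samples, 5 genes of the table and 0 of the 50 G2/M and mitosis genes were called. Over all genes the count was 3 with a pseudocount of 1, 3 with no filter, 14 with no variance trend, 1 with limma-voom on rebuilt reads, 12 with a replicate block and 6710 (53.0%) with sample weights, which were 9.10 for KO replicate 1 and 0.19 for KO replicate 3. It was 2 to 1733 with 1 sample left out, the highest without KO replicate 3. Scaling to equal totals without KO replicate 3, an alternative chosen after seeing the data, gave 2052, and leaving out replicate 3 of both groups, likewise chosen, gave 1863.

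For the 50 genes, sample weights called 20 (53.0% of all genes were called), and at an unadjusted p under 0.05 gave 19 higher and 6 lower. With 1 sample left out, 0 to 5 were called, 0 to 14 were higher and 0 to 4 lower. The 5 and the 14 came without KO replicate 3 (13.7% and 19.5% of all genes). Shares of all genes at that p were not taken for sample weights, the replicate block, both replicates 3 or other samples left out. Those counts are therefore not read as results. Equal totals gave 0 higher (3.83% of all genes), 5 lower (12.9%) and a median of -0.24, beside -0.20 for all genes. Without KO replicate 3 as well, 3 were called (16.2% of all genes), 3 higher (5.71%) and 12 lower (31.3%). The median of the 50 was then -0.31, beside -0.37 for all genes. Leaving out both replicates 3 called 3 (14.7% of all genes), with 13 higher. Same-numbered samples correlated at 0.13, 0.07 and 0.33 in their deviations, so the numbers were not taken to pair samples. The 0.33, for the replicates 3, was the highest between any WT and any KO sample. Whether the replicates 3 share a technical or other difference was not tested. With the replicate block 0 of the 50 were called and 4 were lower, and WT replicate 1 correlated best with KO replicate 2 rather than with its own number.

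Of the 23 named genes, 15 kept their direction under every alternative run. The other 8 had log2 fold changes of -0.27 to 0.12 with all samples. With sample weights Ccnb2 was 0.0434, Plk1 0.12, Top2a 0.11 and Birc5 0.25. With equal totals Mki67 was -0.25, Cdc20 -0.22 and Nusap1 -0.15, and without KO replicate 3 as well Mki67 was -0.26 and Cdc20 -0.45. Without both replicates 3 Cenpa was 0.08 and Birc5 0.17. With 1 sample left out, the lowest and highest values were -0.20 and 0.10 for Plk1, -0.15 and 0.0622 for Top2a, -0.17 and 0.21 for Birc5, -0.11 and 0.21 for Mki67, -0.0207 and 0.145 for Cdc20, -0.18 and 0.55 for Nusap1 and -0.57 and 0.22 for Cenpa. The cause was not tested. Each of the 50 genes had at least 292 reads in every sample.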
